A study of Rattus norvegicus with 16 samples.

Results

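Wnt4, Fzd1, Sfrp1, Dkk3, Lef1 and Axin2 are 6 genes of the Wnt signalling pathway, taken here as every probe set that the array's annotation assigns to 1 of these symbols alone. The rule gave 12 of the 31042 probe sets that are not controls: 1 each for Wnt4, Fzd1 and Axin2, 2 for Lef1, 3 for Sfrp1 and 4 for Dkk3. They were followed in rat adrenal tissue on 16 Affymetrix arrays in 4 groups. The young wild-type group had 2 arrays of normal adrenal medulla at 2 months of age, 1 from a pool of 2 animals and 1 from a pool of 3. Medullary hyperplasia of p27Kip1 (Cdkn1b) mutant rats of the same age filled 8 arrays. The older wild-type group again had 2 arrays of medulla, each from a pool of 2 animals. Pool 1 was labelled female and aged 10 months, and pool 2 was labelled male and aged 12 and 17 months. The last 4 arrays held pheochromocytomas, which are chromaffin cell tumours of the medulla, of p27Kip1 mutant rats aged 8 or 9 months. Tumours 1, 2 and 3 were labelled female and tumour 4 male. The old pools thus differ from each other in both sex and age, and both are older than the rats with tumours. The strain of every rat is given as Sprague-Dawley white eye/Wistar-Kyoto, and the labels name no treatment. Each wild-type array is a pool and each arm has only 2 of them, so the spread between single wild-type animals was not measured. The lesions are those of 1 germline mutation on 1 background.

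Wnt proteins are secreted lipid-modified ligands that bind Frizzled receptors. In the canonical branch the Frizzled receptor acts together with Lrp5 or Lrp6, the cytoplasmic destruction complex of Axin, Apc and kinases stops degrading beta-catenin, and beta-catenin enters the nucleus and acts through Tcf and Lef factors. Secreted proteins such as the Sfrp and Dkk families limit the signal outside the cell, and Axin2 is both a brake and a widely used transcriptional readout of the pathway. In the adrenal gland the pathway is best known from the outer cortex, where Wnt4 is made and where it maintains the aldosterone-producing zona glomerulosa. The chromaffin cells of the medulla come instead from the neural crest.

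Promoters are shown for Axin2 and Lef1, which are known targets of beta-catenin with Tcf and Lef factors, and for Wnt4, the ligand with the largest fall among the 6 genes. Each line gives the 250 bases before the annotated gene start, 5′ to 3′ on the gene's strand, from RefSeq on the GRCr8 build. Axin2 is at chr10:94398535-94398784, Lef1 at chr2:222340463-222340712 and Wnt4 at chr5:154797200-154797449, all on the plus strand. Capitals mark the motif CTTTGA, the core of the Tcf and Lef recognition sequence, searched on both strands. The promoter table held 4 of the 6 genes, with Fzd1 as the fourth.
Axin2: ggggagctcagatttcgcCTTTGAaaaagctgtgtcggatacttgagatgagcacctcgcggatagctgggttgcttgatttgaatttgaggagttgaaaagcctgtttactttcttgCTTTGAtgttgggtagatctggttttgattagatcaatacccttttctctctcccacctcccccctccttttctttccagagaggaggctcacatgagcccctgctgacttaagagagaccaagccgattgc
Lef1: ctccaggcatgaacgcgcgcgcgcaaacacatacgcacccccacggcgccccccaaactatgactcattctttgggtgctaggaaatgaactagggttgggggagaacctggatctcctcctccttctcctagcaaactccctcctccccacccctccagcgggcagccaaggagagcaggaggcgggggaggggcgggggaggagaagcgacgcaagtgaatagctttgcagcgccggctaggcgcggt
Wnt4: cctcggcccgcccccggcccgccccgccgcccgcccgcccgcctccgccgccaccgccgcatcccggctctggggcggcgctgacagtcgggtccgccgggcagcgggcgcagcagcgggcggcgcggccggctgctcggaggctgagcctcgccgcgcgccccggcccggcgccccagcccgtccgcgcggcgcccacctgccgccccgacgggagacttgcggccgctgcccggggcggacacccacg
The Axin2 window held 2 matches, at bases 232 to 227 and 132 to 127 before the start, both on the gene's strand. At least 1 match was present in 13.9% of the 33469 promoter windows of this length, and at least 2 in 1.4%. The letters CTTTGA did not occur in the Lef1, Wnt4 and Fzd1 windows. G and C made up 47.6% of the Axin2 window, 63.2% of the Lef1 window and 86.4% of the Wnt4 window.

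All levels below are log2 values of 1 probe set, so a difference of 1 is a doubling, and levels of different probe sets are not compared. Differences are limma estimates with their standard error (SE), and "passed" means an adjusted p under 0.05 after Benjamini-Hochberg adjustment over all 31042 probe sets. The number of arrays limits the precision. Cdkn1b probe set 1373812_at separated mutant from wild-type arrays at both ages, at 11.58 to 11.86 in hyperplasia against 10.89 to 11.04 in young wild type and 11.39 to 11.70 in pheochromocytoma against 10.45 to 10.73 in old wild type. Its other probe set, 1369192_at, was lower in hyperplasia (5.45 to 6.81 against 6.84 to 6.96) and overlapped between the older groups (3.83 to 4.40 against 4.07 to 4.21). The level of Xist, which is made from the inactive X chromosome of females, disagreed with the labelled sex on 6 arrays, namely hyperplasia 1, 2, 5 and 6 and both young wild-type pools, so sex was not a term of the model. Chromaffin markers were high in every group, with a list mean between 12.73 and 13.49 on all arrays. Cortex markers were also present on every array: their mean was 11.63 to 11.81 in young wild type, 10.48 to 11.29 in hyperplasia, 12.02 to 12.41 in old wild type and 10.34 to 11.68 in pheochromocytoma. Of the 11 cortex genes measured, 3 fell and 0 rose in hyperplasia, and 9 fell and 0 rose in pheochromocytoma. Of all genes, 3.47% passed as lower in hyperplasia and 7.1% in pheochromocytoma. In such bulk tissue, fewer cells of a type and less RNA per cell cannot be told apart.

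Wnt4, the ligand, was lower in both lesions. The young wild-type pools read 7.88 and 7.69, and the hyperplasias ran from 5.84 through a median of 6.49 to 7.69. Of the 8 hyperplasias, 7 lay at or below 6.88, while hyperplasia 8 read 7.69, the value of the lower pool, so that the groups overlapped. The old wild-type pools read 7.28 and 7.68, and the pheochromocytomas read 6.58, 6.69, 6.02 and 5.95, all below both pools. The difference was -1.27 ± 0.34 (SE) in hyperplasia, a 2.41-fold lower level (limma, adjusted p = 0.0347, n = 8 against 2), and -1.17 ± 0.38 in pheochromocytoma, 2.25-fold lower (limma, adjusted p = 0.0484, n = 4 against 2). Wnt4 was therefore past the threshold at both ages, at nearly the same size: the effects differed by 0.10, with a 95% interval of -0.98 to 1.18.

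Both Wnt4 calls lay close to the threshold and moved with single arrays. Without hyperplasia 8 the hyperplasia difference was -1.43 (limma, adjusted p = 0.00316), and the call held without hyperplasia 2, 4, 5, 6 or 7. The pheochromocytoma call held without tumour 2 (-1.30, limma adjusted p = 0.048). The fits that ended the calls follow. In hyperplasia the limma adjusted p was 0.0519 without hyperplasia 1, 0.0534 without hyperplasia 3, 0.208 without young pool 1 and 0.18 without young pool 2, with differences of -1.26, -1.24, -1.17 and -1.36. In pheochromocytoma it was 0.0504 without tumour 1, 0.0985 without tumour 3, 0.105 without tumour 4, 0.0753 without old pool 1 and 0.351 without old pool 2, with differences of -1.26, -1.08, -1.05, -1.37 and -0.97. Wnt4 also went with the cortex content of the arrays. Its level correlated with the cortex marker mean at r = 0.75 over the 16 arrays and at 0.54 after the group means were removed. With that mean as a covariate the difference was -0.71 in hyperplasia (limma, adjusted p = 0.449) and -0.34 in pheochromocytoma (limma, adjusted p = 0.827). The markers of the zona glomerulosa, the cells best known for Wnt4, had a mean of 7.20 to 7.32 in young wild type and 6.62 to 7.24 in hyperplasia. It was 7.18 to 8.14 in old wild type and 6.66 to 7.38 in pheochromocytoma. Wnt4 correlated with the mean of these markers at r = 0.48 over the 16 arrays and at 0.11 after group means were removed. Of those 9 markers 1 fell in hyperplasia and 2 fell in pheochromocytoma, where 3.47% and 7.1% of all genes passed as lower, and 0 rose in either. With their mean as a covariate the Wnt4 difference was -1.20 in hyperplasia (limma, adjusted p = 0.0909) and -1.05 in pheochromocytoma (limma, adjusted p = 0.288). The part of cortical tissue in the lower Wnt4 was not tested beyond these fits.

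**Figure D1:**
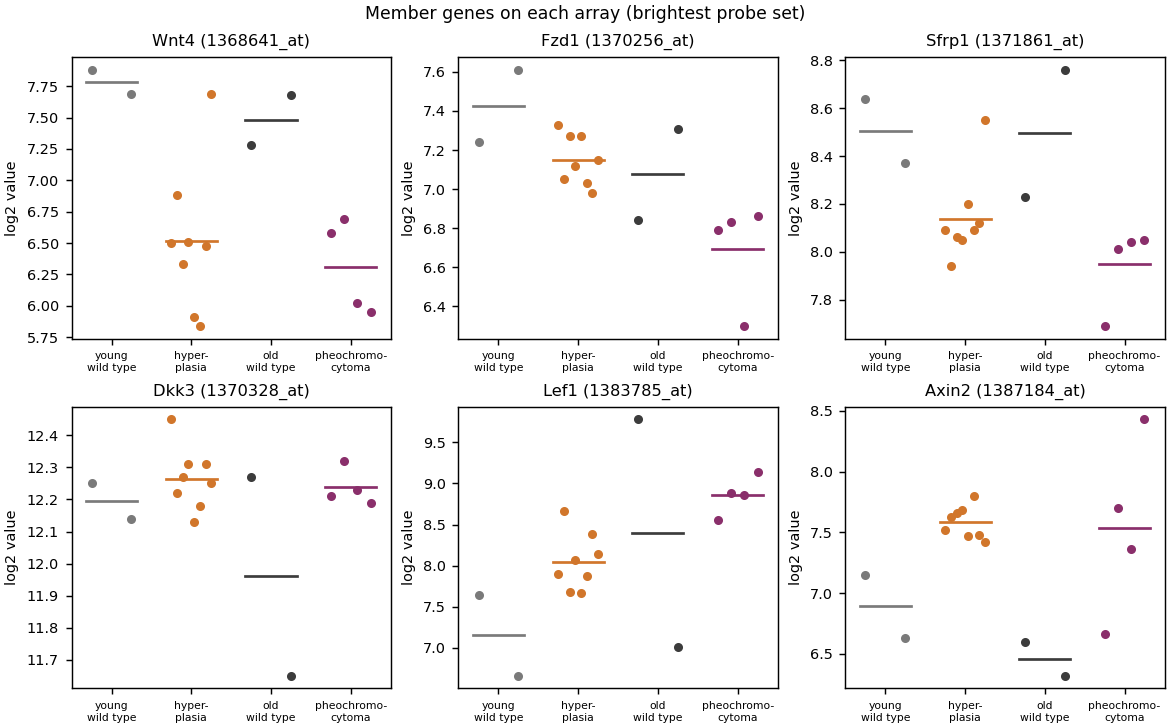
Log2 value of the brightest probe set of each of the 6 genes (vertical axis, scaled per panel and not starting at 0) on every array of the 4 groups. Points are arrays and bars are group means. Wnt4 is lower in both lesions apart from hyperplasia 8 at 7.69, Axin2 is higher in all hyperplasias than in both young pools, and the 2 old wild-type pools stand far apart for Lef1 (9.78 and 7.01).

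Fzd1, a Frizzled receptor, was slightly lower in both lesions, and neither difference passed. Levels were 7.24 and 7.61 in young wild type, and 6.98 to 7.33 with a median of 7.13 in hyperplasia. In old wild type they were 6.84 and 7.31, and in pheochromocytoma 6.79, 6.83, 6.30 and 6.86. The groups overlapped at both ages, and tumour 3 stood lowest. The difference was -0.27 ± 0.16 in hyperplasia (limma, adjusted p = 0.317; 95% interval -0.61 to 0.06) and -0.38 ± 0.17 in pheochromocytoma (limma, adjusted p = 0.149; 95% interval -0.74 to -0.02). Without young pool 2 the former was -0.09 (limma, adjusted p = 0.907) and without young pool 1 -0.46 (0.25). Without old pool 2 the latter was -0.14 (limma, adjusted p = 0.792) and without old pool 1 -0.62 (0.0549).

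Sfrp1, a secreted protein that binds Wnt ligands, was represented by 3 probe sets, and all 6 of their differences from wild type were below 0. On the brightest, 1371861_at, the young pools read 8.64 and 8.37 and the hyperplasias 7.94 to 8.55 with a median of 8.09. The old pools read 8.23 and 8.76 and the tumours 7.69, 8.01, 8.04 and 8.05. All tumours were below both old pools, whereas hyperplasia 8 lay between the young pools. The difference was -0.37 ± 0.16 in hyperplasia, which did not pass (limma, adjusted p = 0.168), and -0.55 ± 0.17 in pheochromocytoma, a 1.46-fold lower level that did (limma, adjusted p = 0.0414).

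Probe set 1383266_at gave the reverse pattern of calls. It read 6.04 and 6.21 in the young pools and 4.95 to 5.72, median 5.20, in hyperplasia, with no overlap, and the difference of -0.87 ± 0.24 passed (limma, adjusted p = 0.0376, 1.82-fold lower). In the older rats it was near the lower end of the arrays' range, at 4.16 and 5.36 in the pools and 4.13 to 4.35 in the tumours, and the difference of -0.52 ± 0.26 did not pass (limma, adjusted p = 0.202). Probe set 1382878_at differed by -0.08 ± 0.16 in hyperplasia and by -0.45 ± 0.18 in pheochromocytoma (limma, adjusted p = 0.834 and 0.105). No single probe set passed in both lesions. Whether the size of the Sfrp1 effect differed between lesions was tested on each probe set, and none passed (adjusted p = 0.592 to 0.807 in limma).

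These calls also ended when single arrays were left out, in several fits at differences no smaller than in the main fit. For 1371861_at in pheochromocytoma the limma adjusted p was 0.0868, 0.06, 0.0544 and 0.0549 without tumours 1, 2, 3 and 4, with differences of -0.46, -0.57, -0.58 and -0.58, and 0.524 without old pool 2, when the difference was -0.28. For 1383266_at in hyperplasia it lay between 0.0553 and 0.0575 without hyperplasia 3, 4, 5 or 6 and was 0.142 and 0.285 without young pools 1 and 2 (differences -0.95 and -0.78). Without old pool 1 the pheochromocytoma difference of 1383266_at was -1.12 and passed (limma, adjusted p = 0.00732), and without old pool 2 it was 0.08 (limma, adjusted p = 0.912), a change of sign. With the cortex mean as a covariate the called difference was -0.56 for 1371861_at, against -0.55 without it, and -0.68 for 1383266_at, against -0.87. Neither was past the threshold in that fit (limma, adjusted p = 0.397 and 0.347). With the cortex mean, 1371861_at correlated at r = 0.51 over the 16 arrays and at -0.01 after group means were removed, and 1383266_at at 0.17 and 0.27.

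Dkk3, a divergent secreted member of the Dickkopf family, did not pass in either lesion on any of its 4 probe sets. Its brightest probe set, 1370328_at, read 12.25 and 12.14 in young wild type and 12.13 to 12.45, median 12.26, in hyperplasia. In old wild type it read 12.27 and 11.65, and in the tumours 12.21, 12.32, 12.23 and 12.19. Every array other than old pool 2 thus lay between 12.13 and 12.45. The difference was 0.07 ± 0.12 in hyperplasia (limma, adjusted p = 0.79; 95% interval -0.19 to 0.33) and 0.27 ± 0.14 in pheochromocytoma (limma, adjusted p = 0.19; 95% interval -0.01 to 0.56).

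The dimmer Dkk3 probe sets 1397754_at and 1394655_at were higher in all 4 tumours than in both old pools. On 1394655_at the tumours read 7.41 to 7.46 and the pools 7.17 and 6.51, a difference of 0.59 ± 0.20 (limma, adjusted p = 0.059). On 1397754_at the difference was 0.41 ± 0.16 (limma, adjusted p = 0.0997). Old pool 2 was the lowest array on both, and the differences followed the pool that was kept. Without old pool 1 the difference of 1394655_at was 0.92 (limma, adjusted p = 0.0137), that of 1397754_at 0.59 (0.0594) and that of 1370328_at 0.58 (0.00701). Without old pool 2 they were 0.26, 0.23 and -0.03 (limma, adjusted p = 0.635, 0.629 and 0.935). The fourth probe set, 1377468_at, read 3.07 to 3.54 on all arrays, below each array's first quartile, and nothing is read from its differences. With the chromaffin marker mean, 1370328_at correlated at r = 0.81 over 16 arrays and at 0.76 after group means were removed, 1397754_at at 0.44 and 0.43, and 1394655_at at 0.69 and 0.36. With the adipocyte marker mean, 1394655_at correlated at -0.87 and -0.74, 1370328_at at -0.75 and -0.62, and 1397754_at at -0.58 and -0.33. The chromaffin mean was 12.73 to 13.19 in old wild type and 13.17 to 13.38 in pheochromocytoma, and the adipocyte mean 4.53 to 5.42 and 4.17 to 4.50. Their part in the Dkk3 values was not tested. The old pools stood apart on both means as on Dkk3, and how far the correlations within groups rest on them was not tested.

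**Figure D2:**
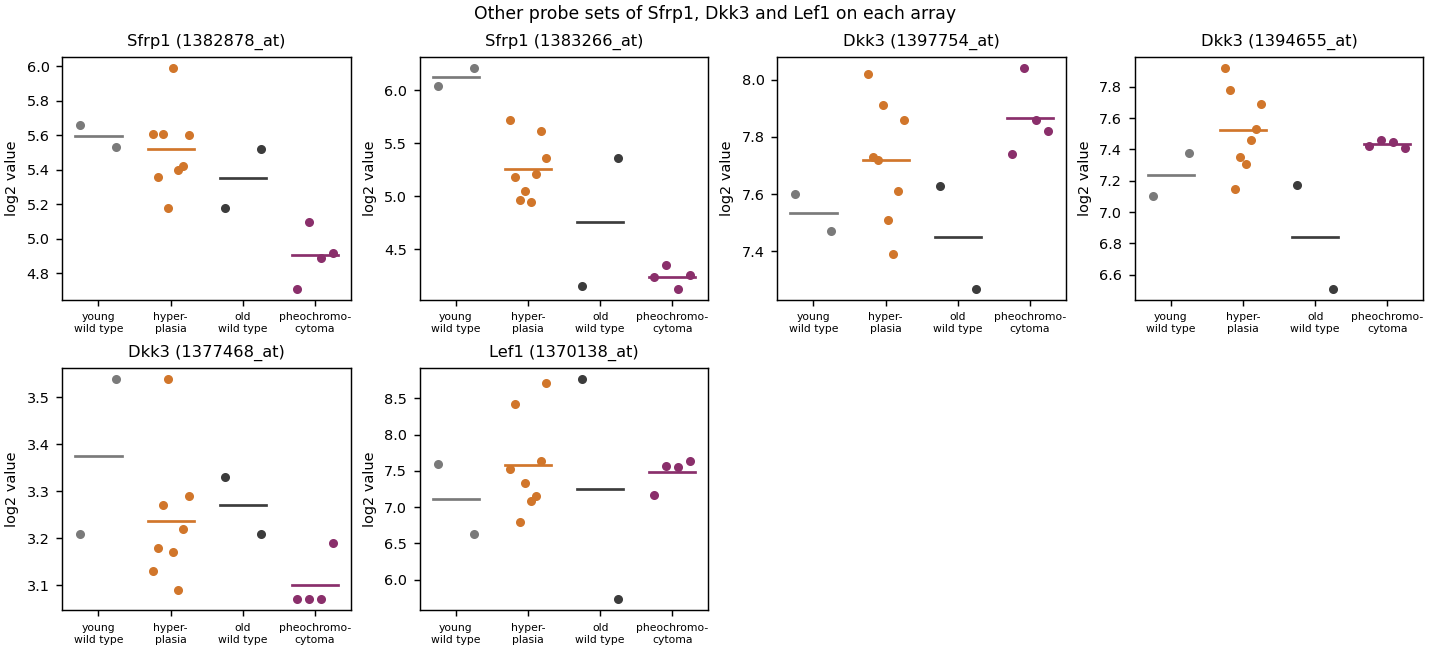
Log2 values (vertical axis, scaled per panel and not starting at 0) of the other probe sets of Sfrp1, Dkk3 and Lef1 on every array. Points are arrays and bars are group means. Sfrp1 1383266_at is lower in every hyperplasia (4.95 to 5.72) than in both young pools, and Lef1 1370138_at repeats the gap between the old wild-type pools (8.77 and 5.73).

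Lef1, a nuclear partner of beta-catenin and itself a target gene, differed more between pools of 1 wild-type group than any of the other 5 genes did. On probe set 1383785_at the young pools read 7.64 and 6.66 and the hyperplasias 7.67 to 8.67 with a median of 7.99, so every hyperplasia lay above both pools, by as little as 0.03 over the higher one. The old pools read 9.78 and 7.01, and the tumours 8.55, 8.88, 8.86 and 9.14, between the pools. The second probe set, 1370138_at, put the old pools at 8.77 and 5.73, and the tumours at 7.17 to 7.64. The old wild-type pools were thus 2.78 and 3.04 log2 units apart on the 2 probe sets, and the probe sets correlated at r = 0.72 over the arrays and at 0.90 within groups.

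No Lef1 difference passed. In hyperplasia it was 0.90 ± 0.46 on 1383785_at (limma, adjusted p = 0.264; 95% interval -0.08 to 1.88) and 0.47 ± 0.57 on 1370138_at (limma, adjusted p = 0.69). In pheochromocytoma it was 0.46 ± 0.51 (limma, adjusted p = 0.585; 95% interval -0.61 to 1.54) and 0.23 ± 0.63 (limma, adjusted p = 0.843). The direction of the older comparison changed with the pool that was kept. Without old pool 1 the pheochromocytoma difference was 1.85 on 1383785_at (limma, adjusted p = 0.00361) and 1.75 on 1370138_at (limma, adjusted p = 0.0479), and without old pool 2 it was -0.92 and -1.28 (limma, adjusted p = 0.218 and 0.272). With the zona glomerulosa mean as a covariate it was -0.59 and -0.88 (limma, adjusted p = 0.602 and 0.558). In the young rats the difference on 1383785_at was 1.39 without young pool 1 and 0.41 without young pool 2, and on 1370138_at 0.95 and -0.02, none past the threshold. Lef1 1383785_at correlated with the chromaffin marker mean at r = 0.15 over the 16 arrays and at 0.81 after group means were removed. With the zona glomerulosa mean the values were -0.39 and -0.68. For 1370138_at they were 0.48 and 0.67, and -0.53 and -0.58. Old pool 2, low in Lef1, had the highest zona glomerulosa mean, 8.14, and the lowest chromaffin mean, 12.73. Old pool 1 had 7.18 and 13.19. How far the values within groups rest on these 2 pools was not tested.

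Axin2 was higher in the lesions, the opposite direction to Wnt4. The young pools read 7.15 and 6.63, and the hyperplasias 7.42 to 7.80 with a median of 7.58, all above both pools. The old pools read 6.60 and 6.32, and the tumours 6.66, 7.70, 7.36 and 8.43. The tumours therefore spanned 1.77 log2 units, from just above old pool 1 to the highest value of any array. The difference was 1.08 ± 0.31 in pheochromocytoma, a 2.11-fold higher level (limma, adjusted p = 0.0297, n = 4 against 2), and 0.70 ± 0.28 in hyperplasia, which did not pass (limma, adjusted p = 0.151, n = 8 against 2; 95% interval 0.10 to 1.30). Fitted on the 10 arrays of 2-month-old rats alone, whose Axin2 values spread less, the same hyperplasia difference of 0.70 passed (limma, adjusted p = 0.0117). It was 0.96 without young pool 1 and 0.44 without young pool 2 (limma, adjusted p = 0.196 and 0.678). The effects in both lesions differed by 0.38, with a 95% interval of -0.51 to 1.27 (limma, adjusted p = 0.771).

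Axin2 followed the cortex content of the arrays in the opposite sense to Wnt4. It correlated with the cortex marker mean at r = -0.92 over the 16 arrays and at -0.79 after group means were removed. Tumour 1, with the lowest Axin2 of the tumours, had their highest cortex mean, 11.68, and tumour 4, with the highest Axin2, had their lowest, 10.34. With the cortex mean as a covariate the Axin2 difference was 0.03 in hyperplasia and 0.07 in pheochromocytoma (limma, adjusted p = 0.975 and 0.953), and with the zona glomerulosa mean it was 0.56 and 0.82 (limma, adjusted p = 0.346 and 0.299). The pheochromocytoma call was also absent without tumour 2 (1.03, limma adjusted p = 0.0609), without old pool 1 (1.22, 0.0567) and without old pool 2 (0.94, 0.266). Axin2 and Wnt4 correlated with each other at r = -0.65 over the arrays and at -0.30 within groups.

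**Figure D3:**
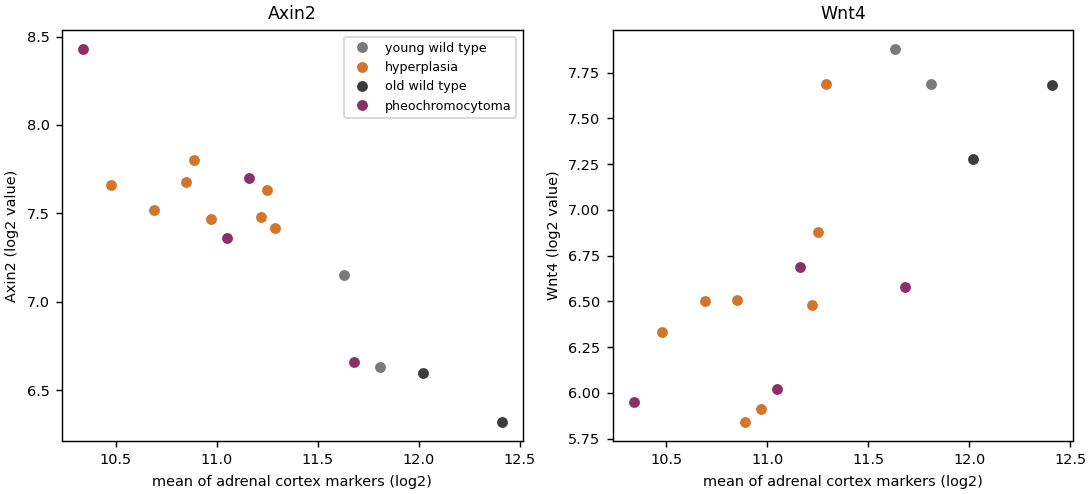
Log2 value of Axin2 (left) and Wnt4 (right) against the mean log2 value of the adrenal cortex markers, 1 point per array, coloured by group; the axes do not start at 0. Axin2 falls along the cortex mean (r = -0.92 over 16 arrays), and Wnt4 rises with it (r = 0.75).

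Set beside each other, 2 of the 12 probe sets passed in hyperplasia, both lower (Wnt4 and Sfrp1 1383266_at), where 3.08% of all probe sets passed as lower, 4.32% as higher and 7.4% in either direction. In pheochromocytoma 3 of 12 passed, Axin2 higher and Wnt4 and Sfrp1 1371861_at lower, against 14.3% of all probe sets, 8.31% higher and 5.95% lower. Counts of 2 and 3 among 12 are too small to be read against these backgrounds. The mutant and wild-type values did not overlap for 3 of the 12 probe sets at 2 months, against 19.2% of all probe sets, and for 7 of 12 in the older rats, against 39.8%. The test of whether the effect differed between the lesions passed for 0 of 12 in limma, against 0.0258% of all probe sets, and 0 of 12 had an unadjusted p under 0.05, against 11.1% of all probe sets. With intervals as wide as those given above, this does not show that the effects were alike.

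Other settings ended some of these calls at differences of nearly the same size. In pheochromocytoma Wnt4 did not pass with labelled sex (-1.19, limma adjusted p = 0.0592) or sex by Xist (-1.09, 0.0552) in the model, nor did Sfrp1 1371861_at with sex by Xist (-0.52, 0.0503). Fitted on only the groups compared, Wnt4 in hyperplasia had a limma adjusted p of 0.0543, and Sfrp1 1371861_at and Axin2 in pheochromocytoma had 0.107 and 0.157. Without the 4 hyperplasias whose Xist disagrees with the label, Wnt4 differed by -1.03 and Sfrp1 1383266_at by -0.87 (limma, adjusted p = 0.136 and 0.114).

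**Figure D4:**
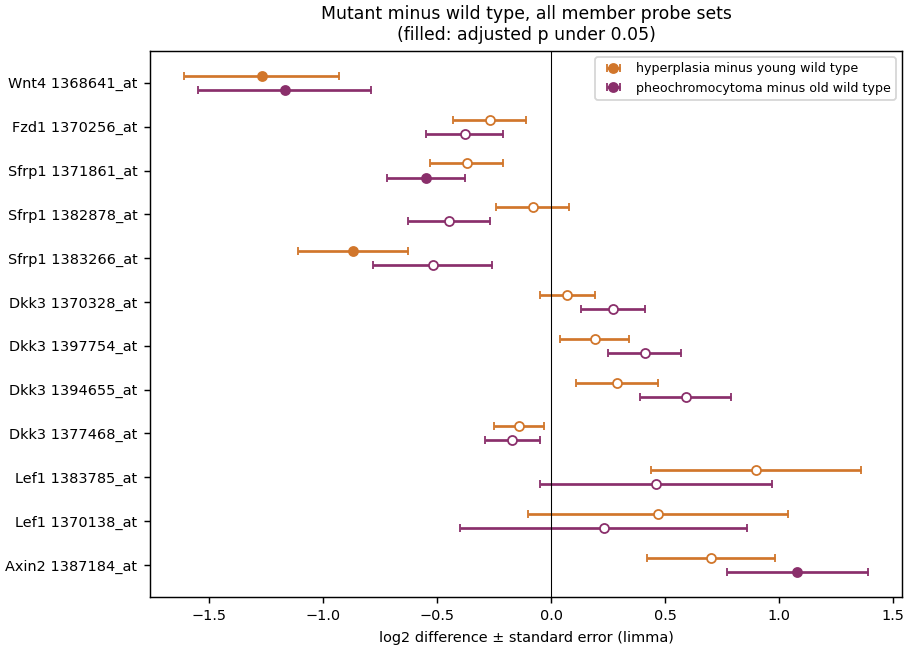
Log2 difference from wild type (horizontal axis) with its standard error for the 12 probe sets, in hyperplasia and in pheochromocytoma. Filled symbols passed the test; Wnt4 is filled in both comparisons, Axin2 in pheochromocytoma only, and the Lef1 bars are the widest (SE 0.46 to 0.63).

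Between the lesions themselves, Fzd1 and the 2 dimmer probe sets of Sfrp1 were lower in pheochromocytoma than in hyperplasia. Of these 2, 1383266_at read below the first quartile in all 4 tumours and 1382878_at in 1, so the size of these differences is uncertain. Fzd1 differed by -0.46 ± 0.12 (limma, adjusted p = 0.0065), Sfrp1 1382878_at by -0.62 ± 0.13 (limma, adjusted p = 0.000923) and Sfrp1 1383266_at by -1.01 ± 0.19 (limma, adjusted p = 0.000378), each with no overlap, while the brightest Sfrp1 probe set differed by -0.19 ± 0.12 (limma, adjusted p = 0.224). Wnt4 and Axin2 differed by -0.21 (95% interval -0.78 to 0.35) and -0.05 (95% interval -0.51 to 0.42), and neither passed (limma, adjusted p = 0.561 and 0.881). These 3 of 12 calls, all lower, stand against 40.7% of all probe sets, 20.3% lower, and against 26.4% without overlap. Between the wild-type groups 1 of 12 passed, against 23.7% of all probe sets and 13.3% lower: Sfrp1 1383266_at was lower in old tissue by -1.36 ± 0.30 (limma, adjusted p = 0.00414), and by -0.76 without old pool 1 (limma, adjusted p = 0.064). The 10 arrays of 2-month-old rats and the 6 arrays of older rats differed in the signal of the 3′ over the 5′ hexokinase control, 1.07 to 1.63 against 2.16 to 3.30 (log2), so age, lesion stage and the set of arrays cannot be told apart in either comparison.

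The wider pathway was read from 92 other genes in 8 lists, of which 71 had a probe set. In hyperplasia 9 rose and 7 fell, together 22.5% of them against 8.89% of all genes measured (5.42% higher and 3.47% lower), and in pheochromocytoma 6 rose and 9 fell, together 21.1% against 16.8% (9.66% higher and 7.1% lower). Their median difference was 0.04 in hyperplasia and -0.04 in pheochromocytoma, against -0.01 and 0.00 over all genes. The difference between the effects passed for 0 of 71 in limma, against 0.0141% of all genes. At an unadjusted p under 0.05 there were 8 of 71 in that test, against 10.8% of all genes. In hyperplasia 24 of 71 were under it, against 25.8%, and in pheochromocytoma 36 of 71, against 33.2%. The genes and lists were chosen with earlier results of these data known, so these shares are not independent support. Each gene is given by its brightest probe set, and the comparisons of the lesions with their own wild type share no array.

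Of 13 measured ligands, with Wnt4, 1 fell in hyperplasia and 3 fell in pheochromocytoma, where 3.47% and 7.1% of all genes passed as lower. Of these ligands 0 rose in either lesion. Their median difference was 0.01 in hyperplasia and -0.30 in pheochromocytoma, against -0.01 and 0.00 over all genes. In hyperplasia 0 of the other 12 measured passed in limma, and 2 had an unadjusted p under 0.05, against 25.8% of all genes. These were Wnt5a, a ligand known mainly for beta-catenin-independent signalling (-0.51 ± 0.19, limma adjusted p = 0.117), and Wnt9a (0.39 ± 0.18, adjusted p = 0.215). In pheochromocytoma Wnt5a passed as lower (-0.84 ± 0.21, limma adjusted p = 0.0141), but it read below the first quartile on all 16 arrays, so the size is not read as a change in level. Wnt1 was lower by -0.55 ± 0.18 (limma, adjusted p = 0.049). Of the 2 secretion genes, Porcn, the enzyme that attaches the lipid to Wnt proteins, rose in hyperplasia by 0.45 ± 0.12 (limma, adjusted p = 0.035), while its dimmer probe set 1397965_at went the other way at -0.40 ± 0.13 without passing. Wls, the Wnt cargo receptor, fell in pheochromocytoma by 0.52 (-0.52 ± 0.15, limma adjusted p = 0.029).

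Among the receptors Fzd2, Lrp6 and Fzd8 passed in both lesions. Fzd2, a Frizzled receptor, rose from 5.91 ± 0.16 (SD, n = 2) to 6.98 ± 0.19 (n = 8) in hyperplasia and from 5.72 ± 0.17 (n = 2) to 6.61 ± 0.34 (n = 4) in pheochromocytoma, by 1.07 ± 0.17 and 0.89 ± 0.19 (limma, adjusted p = 0.00163 and 0.00587). Lrp6, the canonical co-receptor, went from 9.17 ± 0.00 to 8.14 ± 0.33 and from 9.04 ± 0.62 to 7.63 ± 0.22 (SD, same n), by -1.02 ± 0.23 and -1.42 ± 0.26 (limma, adjusted p = 0.0148 and 0.00245). Fzd8 was lower by -0.75 ± 0.22 and -1.13 ± 0.24 (limma, adjusted p = 0.0478 and 0.00618), the former -0.24 without young pool 2. Fzd4 was lower in pheochromocytoma by -1.28 ± 0.35 (limma, adjusted p = 0.0241), but by -0.27 without old pool 2. Counting Fzd1, 1 of 10 measured receptors rose and 2 fell in hyperplasia, and 1 rose and 3 fell in pheochromocytoma. Of all genes, 5.42% passed as higher and 3.47% as lower in hyperplasia, and 9.66% and 7.1% in pheochromocytoma. On the R-spondin axis, which amplifies Wnt signals by protecting Frizzled receptors, Lgr4 was lower in both lesions, by -0.59 ± 0.17 and -0.93 ± 0.18 (limma, adjusted p = 0.0386 and 0.00372). Rspo3, a ligand of Lgr4, was lower in hyperplasia by -0.41 ± 0.12 (limma, adjusted p = 0.0444).

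Secreted inhibitors that passed all fell. Of all genes, 3.47% passed as lower in hyperplasia and 7.1% in pheochromocytoma, and counts among 12 genes are too small to be read against these shares. Including Sfrp1 and Dkk3, 12 inhibitors were measured, of which 3 fell and 0 rose in each lesion. In hyperplasia these were Sfrp2 (-1.68 ± 0.46, limma adjusted p = 0.0368), Sfrp5 (-0.90 ± 0.22, 0.0198) and Wif1, a secreted protein that binds Wnts (-0.65 ± 0.16, 0.0202). In pheochromocytoma they were Wif1 (-0.95 ± 0.17, limma adjusted p = 0.0026), Sfrp1 and Sfrp4 (-0.49 ± 0.11, 0.00838). Sfrp2 varied widely in the young pools (7.24 ± 1.18, SD, n = 2), and its difference was -0.85 without young pool 1.

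In the cytoplasmic and nuclear lists the called changes were all upward. Of 17 measured genes of the cytoplasmic relay and destruction complex, 4 rose and 0 fell in hyperplasia, and 4, with Axin2, rose and 0 fell in pheochromocytoma. Of all genes, 5.42% passed as higher in hyperplasia and 9.66% in pheochromocytoma. Apc2, a neuronal relative of the scaffold Apc, rose from 10.96 ± 0.11 (SD, n = 2) to 11.71 ± 0.15 (n = 8) and from 11.06 ± 0.44 (n = 2) to 11.73 ± 0.18 (n = 4), by 0.75 ± 0.15 and 0.68 ± 0.16 (limma, adjusted p = 0.00663 and 0.0126). The kinase gene Csnk1e rose by 0.54 ± 0.11 and 0.39 ± 0.12 (limma, adjusted p = 0.0072 and 0.039), though neither of its dimmer probe sets passed. Btrc, which marks beta-catenin for degradation, and Apc rose in hyperplasia by 0.48 ± 0.10 and 0.35 ± 0.08 (limma, adjusted p = 0.0111 and 0.0155), and Dvl1, which relays the signal from Frizzled, rose in pheochromocytoma by 0.46 ± 0.14 (limma, adjusted p = 0.0384). The dimmer probe sets of Btrc and Apc did not pass.

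Among 11 nuclear factors 2 rose in hyperplasia and 1 in pheochromocytoma, where 5.42% and 9.66% of all genes passed as higher, with 0 factors lower. Tcf7l2, a DNA-binding partner of beta-catenin like Lef1, rose by 0.84 ± 0.23 and 0.87 ± 0.25 (limma, adjusted p = 0.0385 and 0.0325), and 1 of its 4 dimmer probe sets passed in pheochromocytoma. The co-repressor gene Tle4 rose in hyperplasia by 0.58 ± 0.14 (limma, adjusted p = 0.0208). Of 12 target genes, Myc, a growth regulator with many inputs besides Wnt, was with Axin2 the only one to pass in either lesion, rising by 1.05 ± 0.21 in hyperplasia (limma, adjusted p = 0.00664) and by 0.73 ± 0.23 in pheochromocytoma (limma, adjusted p = 0.0441). The median difference of the target list was 0.15 in hyperplasia and 0.09 in pheochromocytoma, against -0.01 and 0.00 over all genes.

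**Figure D5:**
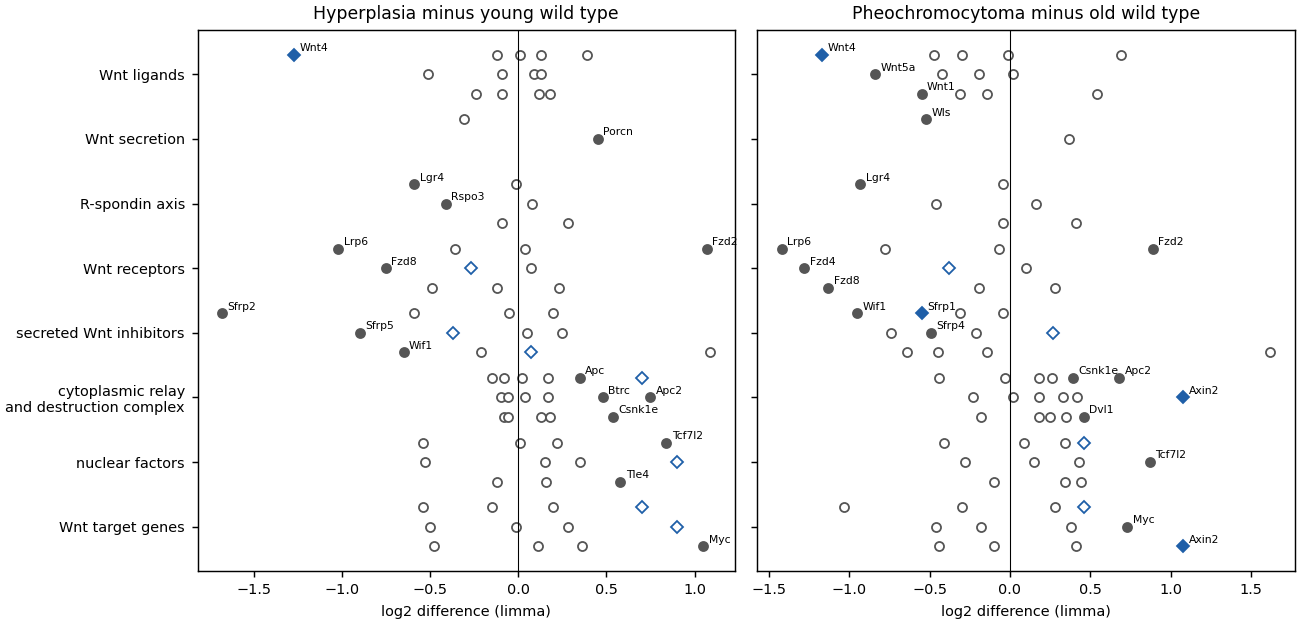
Log2 difference from wild type (horizontal axis) of the measured Wnt pathway genes, 1 symbol per gene, by role, in hyperplasia (left) and pheochromocytoma (right). Diamonds are the 6 genes described first, filled symbols passed the test and are named, and Axin2 and Lef1 appear in the rows of both their roles. Called genes sit left of 0 for ligands and inhibitors and right of 0 for the cytoplasmic and nuclear factor rows.

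These calls also depended on the wild-type pools and on whether the cortex mean was in the model. Of the 16 other pathway calls in hyperplasia, 4 passed without young pool 1 and 1 without young pool 2, and between 11 and 16 without any single hyperplasia. Of the 15 named calls in pheochromocytoma, 10 passed without old pool 1 and 0 without old pool 2, and between 9 and 13 without any single tumour. With the cortex mean as a covariate 0 of the 16 and 0 of the 15 passed in limma, when 345 and 66 of all 31042 probe sets did, against 2296 and 4425 without it. The cortex mean did not overlap between mutant and wild-type arrays at either age, so this fit can hardly tell cortex content and lesion apart.

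The genes whose brightest probe set followed each of the 6 most closely were ranked by Pearson's r over the 16 arrays among 14217 genes, which share group, cortex content and array set, so the values are a description. Wnt4 was followed by Dpy19l3 (r = 0.96, and 0.91 within groups), Gabarapl1 (0.93 and 0.86) and Marchf2 (0.92 and 0.86). Axin2 was followed by Prkcb (0.91 and 0.80), Ncald (0.91 and 0.78) and Efr3b (0.90 and 0.84). For Fzd1 they were Smim13 (0.91 and 0.89), RGD1309362 (0.90 and 0.73) and Maf (0.89 and 0.81), and for Sfrp1 Il4r (0.90 and 0.81), Crem (0.89 and 0.74) and Mapkapk2 (0.87 and 0.68). Dkk3 was followed by Unkl (0.91 and 0.88), Ampd3 (0.90 and 0.85) and Luc7l2 (0.88 and 0.85), and Lef1 by Bhlhe41 (0.87 and 0.76), Tshz3 (0.85 and 0.77) and Chd2 (0.85 and 0.82). None of the 6 genes was among the closest of another. Between the 6 genes the strongest relation of brightest probe sets over the arrays was Fzd1 with Lef1, at r = -0.79, and at -0.63 within groups. The strongest within groups was Dkk3 with Lef1, at 0.77, and at 0.43 over the arrays. Old wild-type pools 1 and 2 stood far apart on both, at 9.78 and 7.01 for Lef1 and 12.27 and 11.65 for Dkk3. How far the Lef1 values within groups rest on these pools was not tested. Wnt4 and Sfrp1 1371861_at rose and fell together at r = 0.71, of which 0.36 remained within groups.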

How the data were processed

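Total RNA of 16 rat adrenal samples was labelled with biotin and hybridized to Affymetrix arrays, per the labels' protocols. The deposited values are log2 values per probe set and array, made with RMA (background correction, quantile normalization, probe summary) per the submitters' processing notes; its version, and which arrays were normalized together, are not given in the sources used here. Of 31099 probe sets, 57 controls were left out. Symbols came from the platform annotation: 20826 probe sets had 1 symbol, 436 several and 9780 none. Where 1 value per gene is given, it is that of the brightest probe set over all arrays.

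The model was limma's (version 3.58.1, R 4.3.3; lmFit with contrasts and eBayes) over all 16 arrays with 4 groups and no covariate (12 residual degrees of freedom), two-sided, with Benjamini-Hochberg adjustment over 31042 probe sets. Tested on simulated data for hyperplasia against young wild type over 31042 probe sets, this recovered 86 of 100 differences of 1 and 99 of 100 of 2 log2 units, with 16 false calls. For pheochromocytoma against old wild type it recovered 81 and 99, with 10 false calls. The simulated noise was drawn independently for each probe set and array. These counts therefore do not cover variation that many probe sets share, such as that of cortex content or of a single pool. Replicates are separate samples per the labels; wild-type arrays are pools.

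Named genes are all probe sets of the 6 genes, up to 4 others per pathway list and lesion with the largest change past the threshold (otherwise the 2 with the smallest p), the 3 most correlated genes, and Cdkn1b and Xist as checks. The genes and lists were chosen with earlier results of these data known. The alternatives were labelled sex or sex by Xist, the cortex or glomerulosa mean, or the replicate number as a term, a robust prior with an intensity trend, only the groups compared, a filter on the 30% dimmest probe sets, quantile normalization, median centring, the mean over a gene's probe sets, and leaving out arrays.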

Additional observations from a re-analysis of the deposited data

Results flagged for a closer look

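Of 24 groups of 4 or 8 arrays examined (12 probe sets in each lesion), 5 had an end value unusually far from the rest by Dixon's ratio; chance marks about 1 group in 20. Pheochromocytoma 3 read 6.30 for Fzd1, against 6.79 to 6.86 in the other tumours. Sfrp1 1371861_at was 8.55 in hyperplasia 8, against 7.94 to 8.20 in the other hyperplasias, and 7.69 in pheochromocytoma 1, against 8.01 to 8.05. Dkk3 1377468_at, below the first quartile on all arrays, was 3.54 in hyperplasia 4, against 3.09 to 3.29, and 3.19 in pheochromocytoma 4, against 3.07 on the other tumours. Hyperplasia 8 also had the highest Wnt4 of its group, 7.69.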

How the results depend on the processing

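Of the 93 differences of the named genes, 40 passed in the main fit. The 93 had 1848 values under alternatives, with 0 called differences of another sign. Of these values 1580 kept their side of the threshold, among them 53 that changed sign without passing. The call was lost in 252 and gained in 16. Only values of the 40 could lose a call, so the 252 are not to be read against all 1848. The cause of the following shifts was not tested. Of the 12 probe sets, the 2 passing in hyperplasia became 0 with the cortex mean or the glomerulosa mean as a term and 0 without the 4 hyperplasias whose Xist disagrees with the label, 1 with the dim filter, and 0 to 2 when single arrays were left out. The 3 passing in pheochromocytoma became 0 with the cortex or glomerulosa mean, 1 with only the groups compared, and 0 to 6 without single arrays (6 without old pool 1, 0 without old pool 2). The 1 passing between wild-type groups became 2 with the glomerulosa mean, 0 with only the groups compared or the dim filter, and 1 to 2 without single arrays. Over all probe sets, the 2296 calls in hyperplasia became 345 (cortex), 1519 (glomerulosa) and 689 (those 4 hyperplasias left out), and 564 to 2687 without single arrays. The 4425 calls in pheochromocytoma became 66 (cortex), 779 (glomerulosa) and 1915 (only the groups compared), and 596 to 4781 without single arrays. The 8 calls for the difference of the effects became 15 (sex by Xist), 2 (cortex), 0 (glomerulosa), 14 (quantile normalization), 3 (median centring), 1 (4 hyperplasias left out) and 0 to 649 (single arrays; 649 without old pool 1). The 7366 calls between wild-type groups became 3770 with only the groups compared and 4500 to 5763 without single arrays. Replicate numbers did not pair the arrays: of 14 pairs with the same number, 2 had deviations correlated above 0.1 (range -0.18 to 0.21). With the replicate block the counts over the 12 probe sets were 1 in each lesion, and over all probe sets 556 in hyperplasia, 1593 in pheochromocytoma and 0 for the difference of the effects. Pools of 2 per wild-type arm and signal near the first quartile (Sfrp1 1383266_at in older rats, Wnt5a) limit the precision. Where 1 pool remains, its spread is taken from the other groups.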
